A study of Rattus norvegicus with 10 samples.

Results

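Ecrg4 (ENSRNOG00000023576), which encodes the precursor of the secreted peptide augurin, was followed across 10 mRNA libraries of RCS cells, a chondrocytic line derived from a rat chondrosarcoma. It is 1 of the 10184 genes in the deposited table. It was chosen by its measured values, as an abundant transcript whose level was lower in ARSL knockout (KO) than in wild-type (WT) cells. Its genotype difference is therefore given as a description, with no test. There were 5 ARSL KO and 5 WT libraries, all untreated and collected 48 h after seeding in medium with 10% serum. ARSL, arylsulfatase L, belongs to the sulfatase family and is found in the secretory pathway. The labels call the libraries biological replicates but do not state whether the KO libraries came from 1 clone, so an effect of the knockout and any other difference between the lines cannot be told apart.

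Ecrg4 enters the secretory pathway through a signal peptide, and its product can be cut at basic residues by furin-like convertases into shorter peptides. The human gene is best known as a candidate tumour suppressor that is often silenced by promoter methylation in cancers. It is also expressed by articular chondrocytes, where it has been used as a marker of the differentiated state. In studies of leukocytes and other cells, the human or mouse product has been placed at the cell surface beside innate immune receptors such as TLR4 and CD14.

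Values in the table are on a variance-stabilized, log2-like scale. Whole reads could be recovered from them, and normalised reads are these reads after division by each library's size factor. The libraries held 2065594 to 2591819 recovered reads over the listed genes, with averages of 2260216 ± 179783 in KO and 2326512 ± 195616 in WT (SD, n = 5 each), a difference with a two-sided p of 0.563 in an exact permutation test. WT 3 and WT 4 stood apart from the other libraries, at 27.9 and 26.8 on the component that held most variance (51.1%, computed without Ecrg4), and KO 4 followed at 8.0, while the other 7 lay between -15.0 and -3.0. The targeted gene was not analysed here, as no row could be matched to Arsl or Arse by symbol, so it does not check the genotype labels. Of 11 chondrocyte markers, 9 had a row, with summed levels of 33603 to 45382 normalised reads in KO and 35194 to 58480 in WT. Sox9 and Snorc had no row under those symbols. Of the markers of other cell types, Cd68 was the 1 listed of 8 for leukocytes (2.93 to 4.34 normalised reads in KO and 0.872 to 10.5 in WT), Vwf the 1 of 6 for endothelium (9.23 to 29.3 and 13.5 to 44.9), Pdgfra and Thy1 the 2 of 7 for fibroblasts (summed, 16.6 to 41.0 and 12.2 to 49.2), and 0 of 6 epithelial markers had a row. Rows can be missing through the table's filter, so an unlisted marker does not have a measured level.

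The start of the gene is shown because silencing of the human gene has been tied to its promoter. RefSeq places rat Ecrg4 on the plus strand of chromosome 9. The 250 bases before its start and the 50 after it, GRCr8 chr9:53484790-53485089, are printed 5′ to 3′ with the matches to GGAATG, the core motif of the TEAD factors, in capitals on either strand.
Ecrg4 promoter: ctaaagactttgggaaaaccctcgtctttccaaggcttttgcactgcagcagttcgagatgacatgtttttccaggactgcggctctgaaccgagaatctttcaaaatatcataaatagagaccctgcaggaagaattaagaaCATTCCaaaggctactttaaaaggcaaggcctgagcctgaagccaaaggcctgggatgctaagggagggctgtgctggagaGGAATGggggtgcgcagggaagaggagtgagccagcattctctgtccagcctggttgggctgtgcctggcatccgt
This window held 6 CG dinucleotides and 51.0% G and C, against medians of 7 and 51.7% over 33469 rat promoter windows of the same length. Methylation was not measured. Among 6 motifs searched on both strands, the TEAD core GGAATG matched at 107 and 26 bases before the start; 14.2% of all windows held at least 1 match and 1.24% at least 2. The AP-1 core TGANTCA, the SOX core ACAAT, the E-box CACGTG, the TATA core TATAAA and the CAAT core CCAAT had no match, which says only that these letters are not in this window. They occur in 7.33%, 33.7%, 6.42%, 14.2% and 37.5% of all windows. The motifs were chosen after the sequence was read. In RefSeq on this assembly no other gene overlaps Ecrg4; the authors' build, rn6, was not used for this.

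Ecrg4 was much less abundant in every KO library than in every WT library, but it remained a well-expressed gene. It had 2276, 2329.8, 1649.8, 2239.7 and 1334.5 normalised reads in KO 1 to 5, against 4696, 4578, 11136, 10800.1 and 4589 in WT 1 to 5. The groups did not overlap: the lowest WT library had 1.96 times the level of the highest KO library. Averages were 1966 ± 448 normalised reads in KO and 7159.7 ± 3479 in WT (SD, n = 5 each), a WT level 3.64 times that of KO. On the log2-like scale KO minus WT was -1.74. On this scale it is the most negative of the 8431 tested genes, at -1.7429 for Ecrg4 beside -1.7375 for Mgst2, the next. Since Ecrg4 was chosen for its fall, this position describes the choice. The scale narrows differences at low levels, so the position does not hold for ratios. WT over KO in mean normalised reads was larger for Ucma (7.04), Mgst2 (4.24) and Nrp1 (3.89) than for Ecrg4 (3.64). In bulk RNA, fewer cells that express a gene and less of its RNA per cell cannot be told apart.

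**Figure D1:**
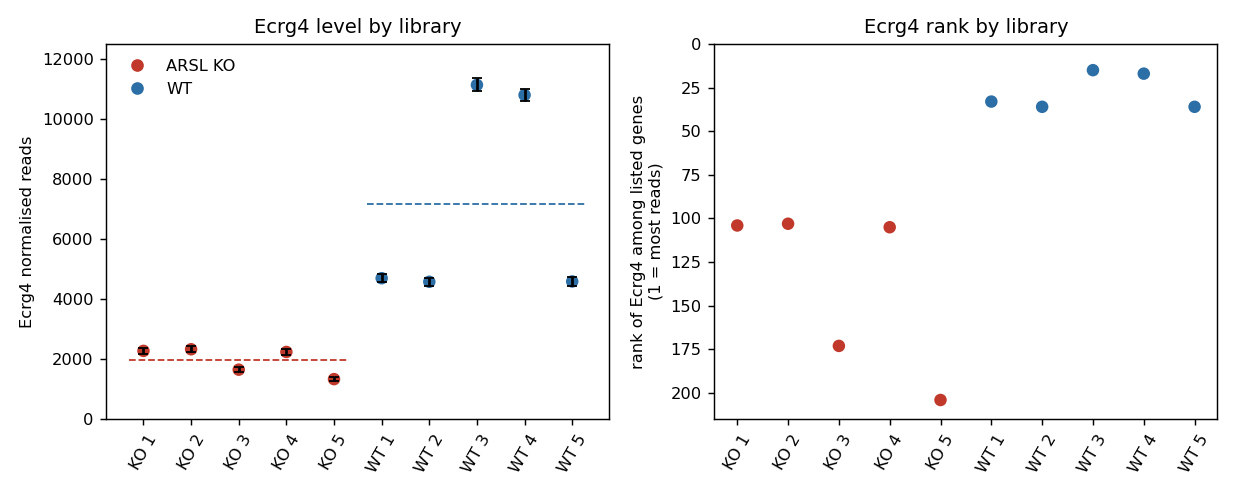
Left, normalised reads of Ecrg4 in each library (points, with 95% exact Poisson intervals that cover counting error only; dashed lines are group means); right, its rank by reads among the 10184 listed genes in each library. The 5 KO libraries lie between 1334.5 and 2329.8 normalised reads and the WT libraries between 4578 and 11136, with WT 3 and WT 4 far above the other WT libraries.

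The values lay in steps, judged by counting error alone. In WT 1, 2 and 5 the 95% exact Poisson intervals were 4572 to 4824, 4448 to 4710.1 and 4453 to 4727 normalised reads, all overlapping. WT 3 and WT 4 overlapped with each other, at 10920.4 to 11354 and 10602 to 11001, far above the others. In KO, libraries 1, 2 and 4 overlapped, at 2180.1 to 2375, 2232 to 2430.5 and 2149 to 2333. KO 3, at 1574 to 1728, and KO 5, at 1268 to 1404, lay below them and apart from each other. The recovered reads behind these values numbered 1488 to 2295 in KO and 4341 to 11297 in WT, and reads without molecular identifiers need not be independent molecules.

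By reads, Ecrg4 ranked 39 of 10184 genes over all libraries, above 99.6% of them. It ranked 123 by its KO mean and 24 by its WT mean. Within single libraries its rank was 103 to 105 in KO 1, 2 and 4, 173 in KO 3 and 204 in KO 5, against 33 to 36 in WT 1, 2 and 5 and 15 and 17 in WT 3 and WT 4. Its share of the recovered reads was 0.0607 to 0.104% in KO and 0.201 to 0.480% in WT. These ranks compare reads, not molecules per transcript length, because levels were not corrected for transcript length. Its neighbours by mean reads were Matn1, a cartilage matrilin, with 5121 ± 498 in KO and 4711 ± 776 in WT, and Nedd4, a ubiquitin ligase, with 4717 ± 703 and 4709 ± 833, both just above it. Eef2, a translation elongation factor, with 4775 ± 512 in KO and 4214 ± 350.3 in WT, and the ribosomal protein gene Rplp0, with 4599 ± 117 and 4351 ± 132, came just below (normalised reads, SD, n = 5 each). In all 4 of these genes the KO and WT values overlapped. In reads, KO minus WT was -5194 normalised reads for Ecrg4, ranked 6 of all rows by size of loss. The 5 rows with a larger loss were a row with no symbol, Mgp (an inhibitor of mineralization), AY172581.9, Mt-atp6 (a subunit of ATP synthase) and Col11a1 (a chain of collagen XI).

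Ecrg4 also varied strongly inside each genotype. Its SD on the log2-like scale was 0.35 over KO and 0.68 over WT libraries, ranked 6 and 7 among the 300 most abundant tested genes. WT 3 and WT 4 exceeded the other WT libraries by at least 1.19 on that scale, a gap ranked 1 among those 300 genes and 16 among all tested genes. Such a placement was common in weaker form: 27.2% of tested genes had both WT 3 and WT 4 above the other WT libraries, and 29.0% had both below. A gap of at least 1 was seen in 43 genes, Ecrg4 included. Among the others were Ifi27, Cxcl10 and Usp18, which interferon induces, and the lysosomal genes Ctsb, Lamp1, Gaa and Tpp1, named after their values were seen.

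KO 4, the KO library highest on component 1, did not stand out for Ecrg4. It had 2239.7 normalised reads, within the range of KO 1 and KO 2 by counting error. On the log2-like scale KO 4 was 0.06 below the highest other KO library and 0.27 above the mean of the other KO libraries. Of the 43 genes with a gap of at least 1, KO 4 was the highest KO library in 37, or 86.0%, against 26.7% of all tested genes, and the median excess over the mean of the other KO libraries was 0.53. The other 6 were Ecrg4, Etv1, Ldhal1, Usp18, P4ha1 and Mgst2. KO 3 and KO 5, the lowest for Ecrg4, were also the lowest KO libraries on component 1, at -11.9 and -15.0. WT 1 and WT 2 scored -9.8 and -9.7 there, and WT 5 -3.0, with nearly equal Ecrg4 levels. On this axis WT 3 and WT 4 are thus set apart, followed by KO 4, while the remaining KO and WT libraries interleave. No correlation over all 10 is given.

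**Figure D2:**
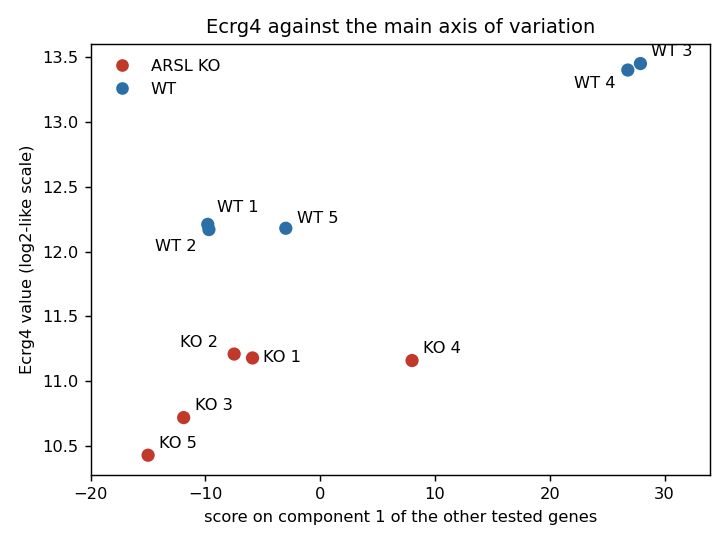
Ecrg4 on the log2-like scale (vertical) against each library's score on component 1 of the other tested genes (horizontal), 1 point a library. At scores between -15.0 and -3.0 the KO libraries lie at 10.43 to 11.21 and WT 1, 2 and 5 at 12.17 to 12.21, WT 3 and WT 4 lie at 13.45 and 13.40, and KO 4 lies at 11.16 with the other KO libraries.

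With WT 3, WT 4 and KO 4 left out, the groups still did not overlap. The averages were then 1898 ± 486 normalised reads in KO (SD, n = 4) and 4621 ± 65.6 in WT (SD, n = 3), with WT at 2.44 times KO and KO minus WT at -1.30 on the log2-like scale. KO minus WT was then -2723 normalised reads, ranked 12. Over all tested genes, 202 had every KO value below every WT value (2.4%) and 157 had every KO value above (1.86%). Of the 202, 75 also had WT 3 and WT 4 above the other WT libraries, or 37.1%, beside 27.2% of all tested genes. In 2 of these 75 the gap was at least 1: Ecrg4 and Mgst2, a microsomal glutathione transferase. Such a gap was seen in 43 of all 8431 tested genes. Ecrg4 is counted in each of these numbers.

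For the other genes, KO against WT was tested with limma on the log2-like values across all 8431 tested genes, with Benjamini-Hochberg adjustment. Ecrg4 was part of that fit and is counted in the totals, but its own call follows from how it was chosen and is not read as a test. At an adjusted p under 0.05, 96 genes passed (1.14%), of which 22 rose (0.261%) and 74 fell (0.878%), and 1136 (13.5%) had an unadjusted p under 0.05. The count was 62 without WT 3, 53 without KO 1, 37 without KO 2, 33 without KO 3 and 37 without KO 5. It was 300 without WT 3, WT 4 and KO 4 together (3.56%), 219 with array quality weights and 60 with a stricter filter. With a covariate for the main component within genotypes, computed from the same values, it was 1345. Among the 300 most abundant tested genes, 2 passed beside Ecrg4, Col11a1 and PCOLCE2, and both fell (3 genes, or 1.0%, with Ecrg4 counted). Both belong to the fibrillar collagen system, and both are among the genes most like Ecrg4 below.

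**Figure D3:**
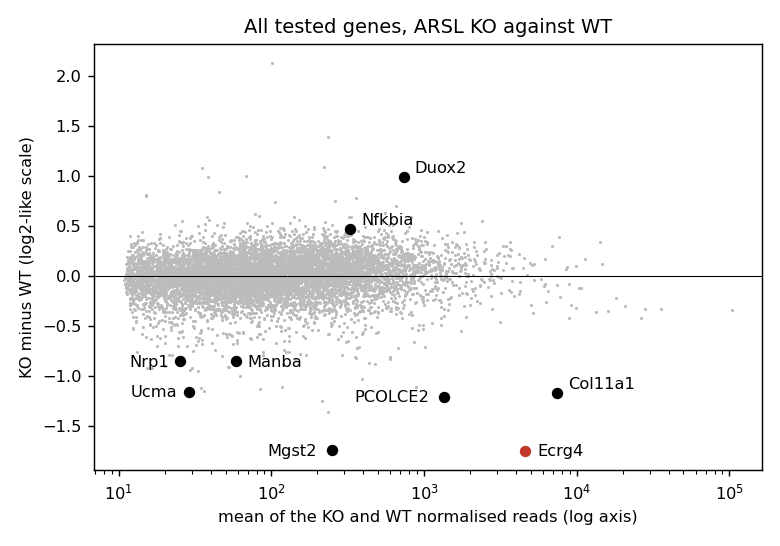
Difference KO minus WT on the log2-like scale (vertical) against the mean of the KO and WT levels in normalised reads (horizontal, log axis), 1 grey point per tested gene, with Ecrg4 in red and some of the genes named in the text in black. Ecrg4 lies at -1.74, the most negative difference plotted, and Col11a1 lies at -1.16.

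The genes whose pattern over the 10 libraries was most like that of Ecrg4 mixed secreted matrix genes with genes of other kinds. Likeness was measured as Pearson's r of the log2-like values over the 10 libraries, which share both the genotype difference and the difference of WT 3 and WT 4. It is given as a description. The median r over tested genes was -0.02, and 92 genes (1.09%) reached 0.9. The 10 most alike with a gene symbol had r of 0.97 to 0.99. They were chosen for resembling a gene that is low in KO, so their own genotype differences follow in part from the choice. In all 10 the KO values lay below the WT values, and 8 of them passed the limma test; nothing is read from these counts.

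Nrp1, a co-receptor for semaphorins and VEGF, was most alike (r = 0.99). It had 11.8, 11.9, 8.31, 13.7 and 5.38 normalised reads in KO 1 to 5, against 31.4, 25.2, 58.0, 50.7 and 33.8 in WT 1 to 5. Like Ecrg4 it was highest in WT 3 and WT 4 and lowest in KO 5, though at a far lower level. Its difference was -0.85 (SE 0.138, limma adjusted p = 0.00832), and it passed with any 1 library left out (adjusted p up to 0.0368).

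Among secreted and matrix genes, PCOLCE2, an enhancer of procollagen processing, had 922, 915, 659, 808 and 557 normalised reads in KO 1 to 5, against 1193, 1226, 2768, 2866 and 1625 in WT 1 to 5 (r = 0.98). Col11a1 had 4153, 4268, 4101, 5854 and 3586 in KO, against 7130.1, 6783, 15272.5, 15001 and 7996 in WT (r = 0.97). Here KO 4 was the highest KO library, unlike in Ecrg4. Ucma, a small secreted cartilage protein, had 8.59, 10.9, 4.62, 9.76 and 1.79 normalised reads in KO, close to the lower limit of the table, against 23.5, 24.2, 72.2, 91.8 and 39.1 in WT (r = 0.98). The 3 genes shared the high values of WT 3 and WT 4 and the low value of KO 5, and in each the groups did not overlap. PCOLCE2 fell by 1.20 (SE 0.236, limma adjusted p = 0.0207), Col11a1 by 1.16 (SE 0.229, adjusted p = 0.0207) and Ucma by 1.16 (SE 0.212, adjusted p = 0.0176). PCOLCE2 no longer passed when KO 2, 3 or 5 was left out (limma adjusted p up to 0.0831). The same held for Col11a1 when KO 1, 2, 3 or 5 was left out (to 0.0834), and for Ucma when KO 3 or 5 was (to 0.0625). Without WT 3, WT 4 and KO 4 the WT level of Ucma was 4.48 times that of KO, against 7.04 times with all libraries.

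Among the remaining genes most alike, Mgst2 had 151, 102, 54.5, 139.6 and 27.8 normalised reads in KO 1 to 5, against 257, 236, 625, 615 and 284 in WT 1 to 5 (r = 0.97). It spread more widely over the KO libraries than Ecrg4 did. Mgst2 fell by 1.74 (SE 0.318, limma adjusted p = 0.0176; 0.0659 without KO 3). Sdf2l1, a protein of the endoplasmic reticulum (r = 0.99), averaged 269 ± 27.4 normalised reads in KO and 476 ± 127 in WT, and Manba, a lysosomal mannosidase (r = 0.97), 32.6 ± 12.6 and 84.9 ± 28.8 (SD, n = 5 each). Both fell, with limma adjusted p of 0.0267 and 0.0277. Both calls were lost without KO 1, 2, 3 or 5 or WT 3 or 4 (up to 0.0985 for Sdf2l1 and 0.102 for Manba). Mapt, the microtubule-binding protein tau (r = 0.97), had 60.5 ± 10.7 normalised reads in KO and 114 ± 32.0 in WT and passed narrowly (adjusted p = 0.0491); its call was lost without any 1 of the KO libraries or WT 3, 4 or 5 (up to 0.147). It was also lost with limma-voom (adjusted p = 0.0643), quantile normalization (0.0633) and the stricter filter (0.0596). Uqcrb, a subunit of respiratory complex III, with 2098 ± 120.1 in KO and 2533 ± 175 in WT, and Paip2, a regulator of poly(A)-binding protein, with 807 ± 108 and 1155 ± 227, were also highest in WT 3 and WT 4 but did not pass (adjusted p = 0.19 and 0.109). Without WT 3, WT 4 and KO 4, Paip2 passed (adjusted p = 0.0323).

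**Figure D4:**
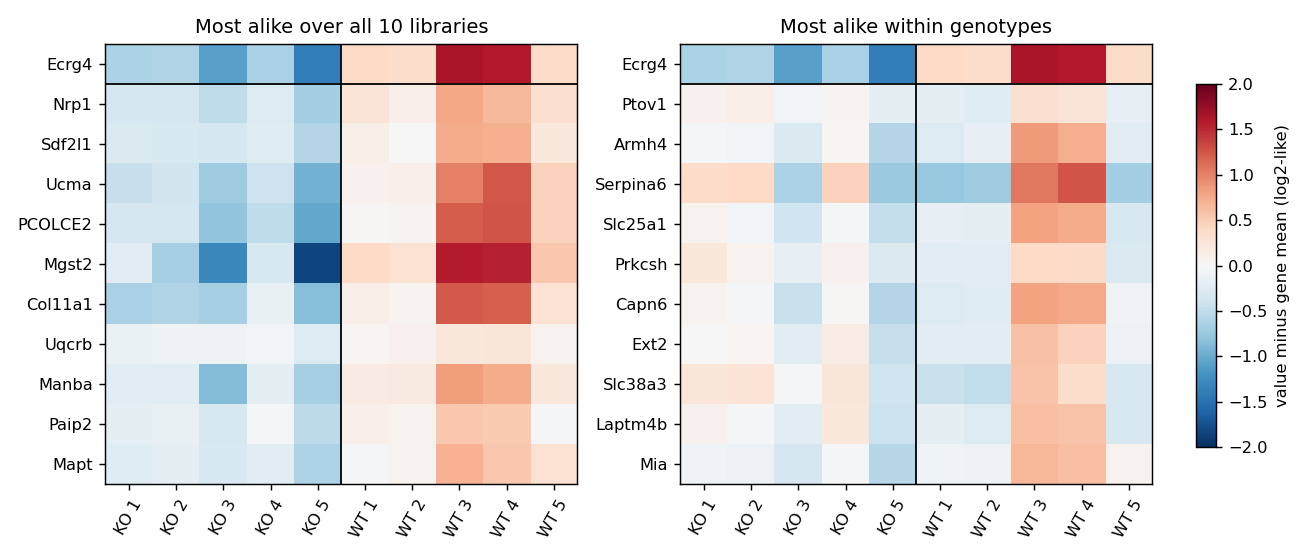
Values of Ecrg4 and of the 10 genes most like it over all libraries (left) or within genotypes (right), as the difference of each library from the gene's mean on the log2-like scale (colour), KO libraries left of the line and WT libraries right of it. On the left every gene is low in KO and highest in WT 3 and WT 4; on the right every gene is highest in WT 3 and WT 4, and KO and WT values overlap in each.

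The 5 genes most opposite to Ecrg4 were Duox2, Vdac3, Anp32e, Pop1 and Aen, with r of -0.99 to -0.96. They were chosen for running against a gene that is low in KO. Their mirrored levels and genotype differences therefore follow in part from the choice. Duox2, an oxidase that makes hydrogen peroxide, had 922, 973, 1029, 814 and 1183 normalised reads in KO 1 to 5, against 628, 623, 299.8, 349.9 and 552 in WT 1 to 5. Its levels mirrored those of Ecrg4, with the lowest in WT 3 and WT 4 and the highest in KO 5. Duox2 rose by 0.99 (SE 0.18, limma adjusted p = 0.0176), a call lost without KO 2, 3 or 5 (up to 0.0625). The other 4 did not pass: Vdac3, a channel of the outer mitochondrial membrane, averaged 1074 ± 62.9 normalised reads in KO and 833 ± 76.6 in WT (adjusted p = 0.0832), and the adjusted p was 0.36 for Anp32e, a histone chaperone, 0.34 for Pop1, a subunit of RNase P, and 0.108 for Aen, a nuclease and p53 target.

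Another set of genes was chosen for resembling Ecrg4 inside the genotypes. Likeness was here the Pearson's r of the deviations from the KO and WT means over the 10 libraries; 338 tested genes (4.01%) reached 0.9, and the median was -0.02. The 10 most alike had r of 0.98 to 0.99: Ptov1, Armh4, Serpina6, Slc25a1, Prkcsh, Capn6, Ext2, Slc38a3, Laptm4b and Mia. Their r over the plain 10 libraries was 0.31 to 0.92, and they shared 0 genes with the 10 most alike over all libraries, whose r of deviations was 0.90 to 0.96. In none of the 10 did the KO and WT values separate, and 0 passed limma or limma-voom. In limma 1 had an unadjusted p under 0.05, beside 13.5% of all tested genes. Choosing genes by their swings inside the genotypes favours a wide spread there. These counts follow in part from that choice, and nothing is read from them. Slc38a3, a glutamine transporter, had 615, 629, 507, 616 and 382 normalised reads in KO 1 to 5, against 367, 355, 786, 672 and 406 in WT 1 to 5. Its KO libraries thus lay between WT 1, 2 and 5 and WT 3 and WT 4, with 382 in KO 5 as the exception. Without WT 3, WT 4 and KO 4 its difference was 0.44 (limma adjusted p = 0.0335), beside 0.13 (adjusted p = 0.807) with all libraries. Serpina6, the corticosteroid-binding globulin, had 41.9, 43.4, 8.31, 46.8 and 6.28 in KO, against 6.10, 6.77, 88.6, 107 and 7.40 in WT. It followed the Ecrg4 steps within each genotype, KO 3 and KO 5 low and WT 3 and WT 4 high, from a lower level. Mia, a protein secreted by chondrocytes, had 2874, 2803, 2385, 2964 and 2040.3 in KO, against 2859, 2822, 4839, 4611 and 3174 in WT. Ext2, a polymerase of heparan sulfate, averaged 404 ± 70.5 normalised reads in KO and 479 ± 146 in WT, and Laptm4b, a lysosomal membrane protein, 1955 ± 336 and 2241 ± 761 (SD, n = 5 each).

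**Figure D5:**
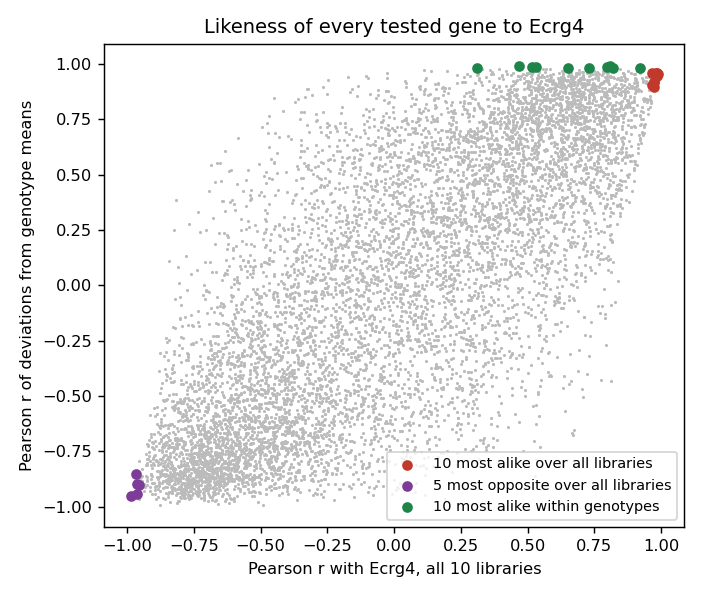
Pearson's r with Ecrg4 over all 10 libraries (horizontal) and Pearson's r of the deviations from the genotype means (vertical), 1 grey point per tested gene. The 10 genes most alike over all libraries (red) lie at 0.97 to 0.99 and 0.90 to 0.96, and the 10 most alike within genotypes (green) at 0.31 to 0.92 and 0.98 to 0.99; the 5 most opposite are purple.

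Plain r with Ecrg4, not r of deviations, was also taken in the 7 libraries without WT 3, WT 4 and KO 4. It was 0.92 to 0.98 for the 10 genes most alike over all libraries. For the 10 most alike within genotypes, chosen by r of deviations, it was -0.44 to 0.82. Plain r includes the genotype difference, which the first set was chosen for sharing. The contrast between the sets thus follows in part from the choice. When the 10 most alike genes were chosen anew in these 7 libraries, 1 of the first 10, Nrp1, was among them.

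Genes that act on secreted precursors were measured beside Ecrg4. Of 25 convertases and peptide-processing enzymes, 17 were tested and 0 passed limma (5 had an unadjusted p under 0.05, beside 13.5% of all tested genes, and 0 passed with limma-voom), 10 with a negative and 7 with a positive difference. Their median difference was -0.09, beside 0.01 over all tested genes. Furin, the convertase that cuts after paired basic residues, had 353, 265, 269, 296 and 226 normalised reads in KO 1 to 5, against 217, 255.5, 313, 268 and 286 in WT 1 to 5, and the groups overlapped. The 2 most abundant members, the signal peptidase subunits Spcs1 and Spcs3, averaged 1187 ± 54.9 and 1129 ± 49.8 normalised reads in KO, against 1119.99 ± 53.2 and 1086 ± 51.4 in WT (SD, n = 5 each; limma adjusted p = 0.681 and 0.798). Cpe, the carboxypeptidase that trims basic residues from peptide precursors, was chosen after its values were seen. It had 439, 447, 314, 585 and 264 normalised reads in KO, against 489.9, 514, 1121, 1145 and 641 in WT (r with Ecrg4 = 0.93). KO 4 lay above WT 1 and WT 2, so the groups overlapped. The difference was -0.82 (SE 0.244, limma adjusted p = 0.139). Without WT 3, WT 4 and KO 4 it was -0.55 (limma adjusted p = 0.0119). Cpe was then the 1 member that passed, beside 3.56% of all tested genes in that fit.

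Of 9 surface molecules reported as partners of the human or mouse Ecrg4 product, Tlr4 and Cd14 had a row. Tlr4 was at 0 to 4.62 normalised reads in KO and 0 to 7.65 in WT, below the level tested. Cd14 had 14.0 ± 1.56 normalised reads in KO and 11.9 ± 2.49 in WT (SD, n = 5 each; difference 0.09, SE 0.0954, limma adjusted p = 0.7). Of 18 genes of the NF-kappa-B response, 8 were tested, 1 rose (beside 0.261% of all tested genes) and 7 did not pass (median difference 0.01). The member that rose, Nfkbia, encodes an inhibitor of NF-kappa-B and had 423, 389.9, 402, 319 and 405 normalised reads in KO 1 to 5, against 255, 290.3, 246, 280.1 and 269 in WT 1 to 5. It rose by 0.47 (SE 0.0924, limma adjusted p = 0.0207), a call lost without KO 1, 2, 3 or 5 or WT 3 (up to 0.0822). WT 3 had its lowest and WT 4 its second highest WT value, so those libraries did not stand apart together.

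Of 30 other peptide precursors and secreted hormones, 7 were tested and 0 passed limma (2 had an unadjusted p under 0.05, beside 13.5% of all tested genes, and 0 passed with limma-voom; median difference -0.17). The most abundant, the progranulin gene Grn, had 1344 ± 210 normalised reads in KO and 1378 ± 407 in WT, and Fstl1, a follistatin-like protein, 846 ± 148 and 950.4 ± 101 (SD, n = 5 each; limma adjusted p = 0.992 and 0.542). Without WT 3, WT 4 and KO 4, Stc1, the precursor of stanniocalcin, was the 1 member that passed, with a difference of 0.49 (adjusted p = 0.0474) beside 0.45 (adjusted p = 0.0935) with all libraries. Of all tested genes, 3.56% passed with those libraries left out.

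Ecrg4 was then set beside the cartilage genes. Of 27 genes of articular and superficial-zone cartilage, 8 were tested, 1 fell (beside 0.878% of all tested genes) and 7 did not pass. The 1 that fell, PCOLCE2, was already chosen above for its likeness to Ecrg4. Differences were negative in 7 and positive in 1, with a median of -0.37, and of 0.00 without WT 3, WT 4 and KO 4. The median r of this list with Ecrg4 was 0.77. Prelp, an abundant small proteoglycan, had 5721 to 8391 normalised reads in KO and 5501 to 12274 in WT (adjusted p = 0.688). The list's mean deviations from the gene means were 0.777 in WT 3 and 0.691 in WT 4, against -0.448 to 0.055 in the KO libraries and -0.205 to -0.013 in WT 1, 2 and 5. Of 17 core cartilage matrix genes, 15 were tested, 2 fell (beside 0.878% of all tested genes) and 13 did not pass. The 2 that fell, Col11a1 and Ucma, were also chosen above for their likeness to Ecrg4. The median difference was -0.08, and 0.11 without the 3 libraries, where 1 member, Col9a2, rose and the same 2 fell. Over all 8431 tested genes, 113 rose and 187 fell without those libraries (3.56% in either direction). The median r with Ecrg4 was 0.57 for the core list. For the lists above it was 0.46 (other peptide precursors), 0.26 (NF-kappa-B response) and 0.21 (convertases and peptide-processing enzymes). The mean deviations of the core list were 0.557 and 0.572 in WT 3 and WT 4 and -0.323 to 0.057 in the other 8 libraries. WT 3 and WT 4 were thus the highest libraries for both lists, as for Ecrg4. Their part in the difference of Ecrg4 was not tested.

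The lysosome and cell cycle lists moved with the same libraries. Of 24 lysosome genes, 19 were tested, 1 fell (beside 0.878% of all tested genes) and 18 did not pass. The 1 that fell, Manba, was already chosen above for its likeness to Ecrg4. The median difference was -0.26, and 0.05 without the 3 libraries. The median r of the lysosome genes with Ecrg4 was 0.71. Mean deviations were 0.641 in WT 3, 0.580 in WT 4 and 0.124 in KO 4, against -0.388 to -0.078 in the other KO libraries and -0.247 to -0.077 in the other WT libraries. Of 28 cell cycle genes, 26 were tested and 0 passed limma (4 had an unadjusted p under 0.05, beside 13.5% of all tested genes, and 0 passed with limma-voom), 23 of them with a positive difference (median 0.17; 0.06 without the 3 libraries). Their median r with Ecrg4 was -0.55, with mean deviations of -0.301 in WT 3 and -0.373 in WT 4, against -0.084 in KO 4, 0.092 to 0.162 in the other KO libraries and -0.012 to 0.143 in the other WT libraries. The list also holds inhibitors of cyclin-dependent kinases, so it does not measure division alone. Of these inhibitors, Cdkn1a had the list's largest positive difference (0.43) and most negative r with Ecrg4 (-0.895). The 3 negative differences were those of Cdkn1b, Cdkn1c and Cdkn2b, also inhibitors. Cdkn2a and Cdkn2c had differences of 0.03 and 0.07. Top2a, a topoisomerase of dividing cells, had 2871 to 3837 normalised reads in KO and 2067 to 3652 in WT (adjusted p = 0.525), and Pcna, the replication clamp, 729.98 to 1136 and 469 to 1047 (adjusted p = 0.466). KO 3 and KO 5, the lowest for Ecrg4, were at 0.092 and 0.162 on the cell cycle list and were the lowest KO libraries on the lysosome, articular and core cartilage lists. The part of these states in the level of Ecrg4 was not tested.

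In RefSeq order on GRCr8, the nearest 3 genes on each side of Ecrg4 hold 2 that are in the table, Nck2 before it and Tpp2 after it. Nck2, an adaptor of receptor signalling, had 180.4, 228, 219, 248 and 257 normalised reads in KO 1 to 5, against 268, 283, 364, 307 and 265 in WT 1 to 5 (limma adjusted p = 0.173). Its KO values lay below its WT values, by a small margin, and WT 3 and WT 4 were its highest libraries. Tpp2, a tripeptidyl peptidase, had 376, 427, 347, 356 and 391.9 in KO, against 558, 539, 472, 369 and 529.6 in WT. The groups overlapped through WT 4, and WT 3 and WT 4 were its lowest WT libraries, opposite to Ecrg4. Its difference was -0.34 (limma adjusted p = 0.189), and -0.45 without WT 3, WT 4 and KO 4 (adjusted p = 0.00293).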

How the data were processed

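RNA of 5 ARSL KO and 5 WT libraries of RCS cells was sequenced, per the labels' protocols. The submitters' processing notes name bcl2fastq, STAR 2.7.11a, HTSeq and the build rn6; whether strand was used is not stated there. The authors deposited values on a variance-stabilized log2 scale, normalized for library size, by a tool the sources used here do not name. Its lowest value, 4.42, is that of a count of 0. The closed form of the transformation was inverted from that value, which put every value on a whole read with a largest departure of 1.6e-09 reads. Tested genes were those whose average exceeded that lowest value by 1 or more, which corresponds to 10.7 normalised reads (8431 of 10184) with limma 3.58.1 in R 4.3.3, with an intensity trend, two-sided, Benjamini-Hochberg adjusted, calls at 0.05. P-values measure the spread between these libraries. The gene, the lists and the rules were chosen with earlier results of these data known. The rule named the 10 genes most like Ecrg4, the 5 most opposite, the 10 most alike within genotypes, calls among the 300 most abundant genes, called list members (otherwise the 2 most abundant), the 2 next genes in level on either side and the 3 nearest genes on either side; rows with placeholder symbols were passed over. The lowest chi-square per degree of freedom between libraries of a group, 1.85 for WT 1 and WT 2, was above sampling noise, so all were kept as separate samples. This does not show that they came from separate cultures. It was 2.19 for KO 1 and KO 2 and 2.37 for WT 3 and WT 4. Between WT 3 or WT 4 and the other WT libraries it was 15.7 to 21.3. Alternatives were a replicate block, scalings, filters, variance settings, weights, limma-voom and leaving out libraries. Figures used matplotlib 3.10.9. Promoters come from RefSeq on GRCr8. Not every list member's result is reported here.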

Additional observations from a re-analysis of the deposited data

Results flagged for a closer look

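In 5 of the 84 groups of 5 libraries looked at, 1 library lay far from the other 4 on the log2-like scale (Dixon's test at 95%, which chance passes in about 1 group in 20). KO 5 was low for Mapt, at 6.308, and for Grn, at 10.01. KO 4 was high for Nedd4, at 12.55, and low for Pcna, at 9.593. KO 1 was high for Matn1, at 12.56. Ecrg4 itself had no such library in either genotype, since WT 3 and WT 4 were high together and KO 3 and KO 5 low together.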

How the results depend on the processing

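The KO minus WT difference of Ecrg4, -1.74 on the log2-like scale, was negative under the 17 alternatives tried for it. Nothing is read from that direction. The groups do not overlap, so leaving out libraries could not reverse it. The replicate block and the covariate cannot change the difference in this design. The size of the difference was -1.87 to -1.55 with any 1 library left out and -1.30 without WT 3, WT 4 and KO 4. It was -1.73 after median centring, -1.77 after quantile normalization and -1.76 on log2 of normalised reads plus 1 or of TMM-scaled CPM plus 1. The number of tested genes that passed, 96, was 33 to 101 with any 1 library left out, 60 with the stricter filter (48.2 normalised reads), 219 with array quality weights, 300 without those 3 libraries and 1345 with the covariate; it was within 1.5 times of 96 under the others, among them 80 with limma-voom and 136 with the replicate block. The replicate numbers did not pair the samples: same-numbered KO and WT libraries correlated at -0.293 to 0.587 in their deviations, and 2 of 5 KO libraries correlated best with their own number. Of the 10 genes most like Ecrg4, 7 to 10 stayed with any 1 library left out, 2 with Spearman's correlation and 1 without the 3 libraries (the cause was not tested); 7 to 10 stayed under the other alternatives. The 10 most alike within genotypes kept 4 to 7 with any 1 library left out, 6 to 10 under the scaling and filter alternatives, 2 with Spearman's correlation and 1 without the 3 libraries. The difference in library totals, -66295 reads, ranged over -118301 to 31.6 with any 1 library left out. Among named genes that had not passed, Paip2 passed in limma with the replicate block (adjusted p = 0.0402) and Tpp2 with array quality weights (0.0168). With the covariate, Uqcrb, Paip2, Vdac3, Aen, Nck2, Tpp2, Top2a and Pcna passed, beside 1345 of all 8431 tested genes. The covariate was computed from the same values. It can take out spread inside the genotypes but cannot change a difference, so these calls are no independent support. Grn, which did not pass and had a difference of -0.004, changed sign with array quality weights (0.217), limma-voom (0.0348), median centring (0.00521) and without the 3 libraries (0.258), and ranged over -0.104 to 0.121 with any 1 library left out.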
